A study of Mus musculus with 12 samples.

Results

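The class I and class II histone deacetylases were followed as the 10 genes Hdac1 to Hdac10, taken by symbol from the 23309 genes of an RNA-seq table of mouse myeloid progenitors. They were chosen as the enzymes that act against CBP and p300, by name and not by a threshold on a measured value. All 10 reached 1 FPKM in 2 or more of the 12 libraries, as did 11516 genes in all, which are called the tested genes here. Hdac1, Hdac2, Hdac3 and Hdac8 form class I, Hdac4, Hdac5, Hdac7 and Hdac9 class IIa, and Hdac6 and Hdac10 class IIb.

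The cells were c-Kit+ bone marrow progenitors carrying a retroviral fusion of HoxB8 with the estrogen receptor, grown in IL-3 and E2 (estradiol), which keeps the fusion active and the cells immature. The 2 genotypes were HMGN1-OE, from mice with a transgene for human HMGN1 in a C57BL/6 background, and wild-type, from littermates without it. Both genotypes carried the HoxB8 fusion, and RNA was taken at 0, 36 and 96 h after E2 was withdrawn, which gave 6 groups of 2 libraries. The age of the mice, the promoter of the transgene, and whether the libraries of a group came from separate mice or separate cultures were not given in the sources used here. The p-values therefore rest only on the spread between these libraries. For the values as deposited that spread was pooled over genes of like level, so a gene's own spread did not enter. The human transgene was not analysed here. Mouse Hmgn1 was listed at 85.7 and 141 FPKM in wild-type and at 201 and 97.6 FPKM in HMGN1-OE libraries at 0 h, and this endogenous gene does not check the transgene.

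Histone deacetylases remove the acetyl groups that acetyltransferases such as CBP and p300 place on histone lysines, and their substrates include other proteins too. Class I enzymes are mostly nuclear and work inside corepressor complexes. Hdac1 and Hdac2 sit in the Sin3, NuRD, CoREST and MiDAC complexes, Hdac3 sits in the NCoR complex, and Hdac8 acts largely alone. Class IIa enzymes have weak deacetylase activity of their own, bind MEF2 transcription factors, recruit the Hdac3 complex, and leave the nucleus bound to 14-3-3 proteins once kinases phosphorylate them. In class IIb, Hdac6 acts in the cytoplasm on tubulin and Hsp90, and Hdac10 deacetylates polyamines. Inhibitors of these enzymes are used against blood cancers.

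The deposited values are FPKM scaled to ERCC RNAs, synthetic RNAs added in equal amounts to RNA from a fixed number of cells. On this scale most genes fell together. The median of log2(FPKM + 1) over the tested genes lay between 3.91 and 4.97 in the libraries of 0 and 36 h and between 2.02 and 3.06 in those of 96 h. Changes are therefore given as log2 differences of FPKM + 1 on 2 scales, as deposited and relative to the median of the tested genes in the same library. In these bulk samples, fewer cells of a type and less RNA per cell cannot be told apart. The table holds no read counts, so sequencing depth is unknown and no counting error is given. Markers fixed for immature myeloid cells summed to 5612 to 16325 FPKM at 0 h and 124 to 2336 FPKM at 96 h. The 10 listed markers of mature neutrophils summed to 1157 to 2959 FPKM at 0 h and 65560 to 171403 FPKM at 96 h. S100a8 and S100a9 made up most of the sum at 96 h. S100a9 stood at 0.0511 FPKM in 1 wild-type library of 96 h, against 26546 to 73461 FPKM in the others. Mmp8 of this list ran from 55.6 to 204 FPKM at 0 h and from 12.5 to 60.4 FPKM at 96 h. The eosinophil, basophil and mast cell markers summed to 410 to 818 FPKM at 0 h and 299 to 2467 FPKM at 96 h. Within this list Prg2, Epx and Fcer1a were higher at 96 h, Cpa3 and Gata2 lower, and Mcpt8 overlapped. Prg2 ran from 2.54 to 19.8 FPKM at 0 h. At 96 h Prg2 stood at 1970 and 933 FPKM in wild-type and at 186 and 472 FPKM in HMGN1-OE libraries. Cpa3 went from 255 to 540 FPKM to 39.1 to 168 FPKM. The monocyte and macrophage markers summed to 47.1 to 903 and 338 to 1285 FPKM, with C1qa under 0.2 FPKM throughout. The part of all these cell types in the results was not tested.

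Members differed in direction along differentiation, as genes at large did once each library was set to its own median. Transcripts of Hdac1, Hdac2, Hdac3, Hdac8 and Hdac10 were lower at 96 h than at 0 h as deposited in both genotypes, and they stood lower relative to the library median in all 4 libraries of 96 h than in all 4 of 0 h. Hdac4 went the other way, with a rise of 2.29 ± 0.22 (SE) on the log2 scale relative to the library median in wild-type cells and of 2.16 ± 0.22 in HMGN1-OE ones, while its deposited FPKM did not change beyond the test's threshold. Hdac5, Hdac6, Hdac7 and Hdac9 fell as deposited, with log2 differences of -1.10 to -1.41, against medians of -1.75 in wild-type and -1.28 in HMGN1-OE over all tested genes. No member differed between the genotypes past the threshold at any time on either scale.

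**Figure D1:**
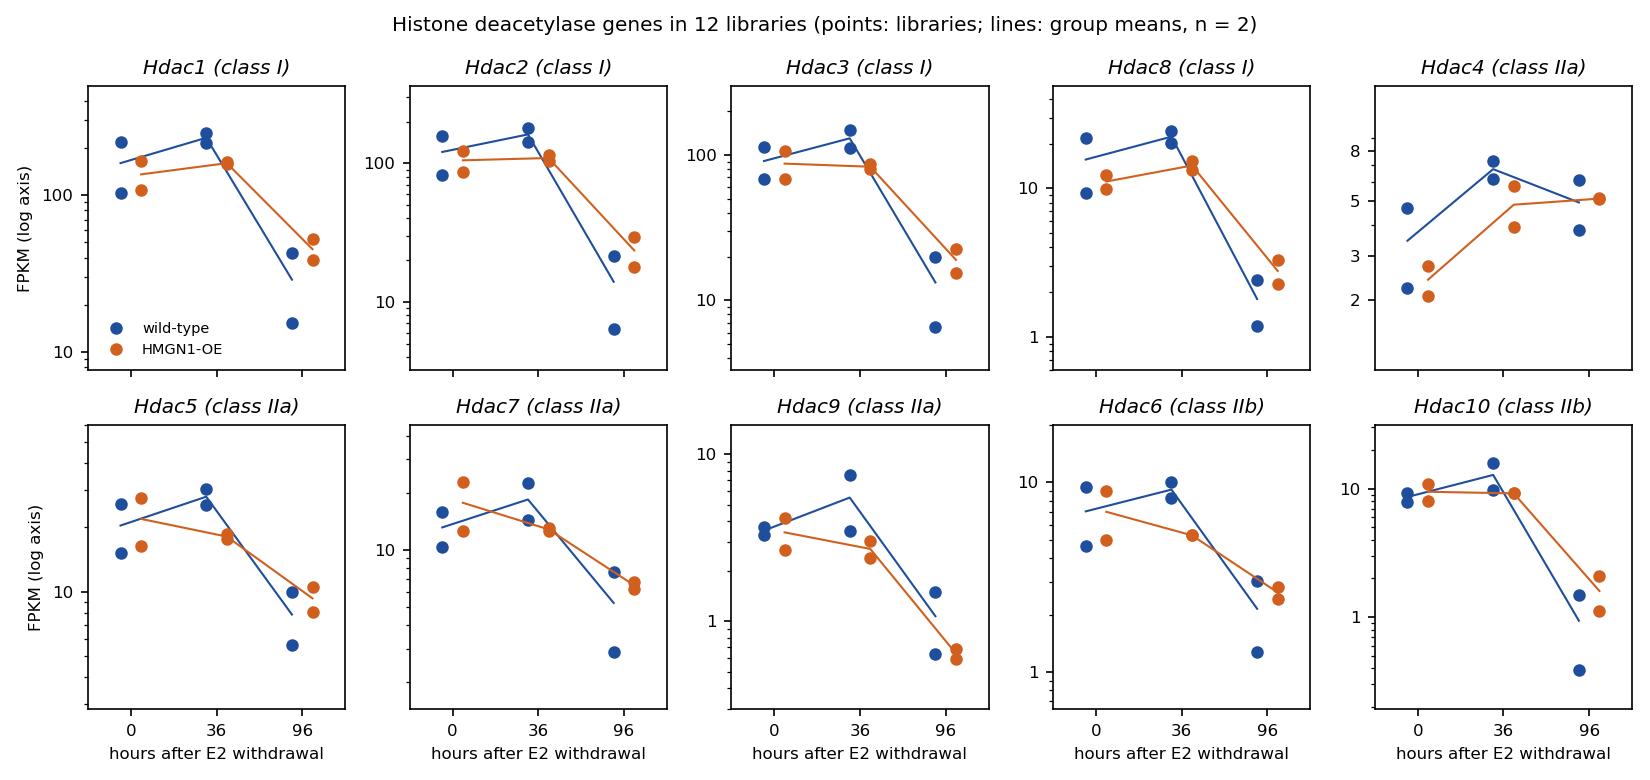
Deposited FPKM of the 10 genes (log axis, a range for each gene) against hours after E2 withdrawal. Points are single libraries, 2 for each genotype and time, and lines join group means. The libraries of 96 h lie below those of 0 h for every gene except Hdac4, whose libraries run from 2.07 to 4.70 FPKM at 0 h and from 3.81 to 6.08 FPKM at 96 h.

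FPKM is a level per transcript length, so levels of different genes can be set side by side. At 0 h the order of the mean FPKM over both genotypes was Hdac1, Hdac2, Hdac3, Hdac5, Hdac7, Hdac8, Hdac10, Hdac6, Hdac9 and Hdac4. It ran from 148 ± 54.2 (SD, n = 4) down to 2.94 ± 1.21. The pairs Hdac7 and Hdac8, Hdac10 and Hdac6, and Hdac9 and Hdac4 kept this order in 3 of 4 libraries, and the other neighbours kept it in 4 of 4. Across libraries the ranges of most neighbours overlapped, while that of Hdac3 (68.0 to 114 FPKM) lay above that of Hdac5 (15.1 to 27.4 FPKM) and that of Hdac6 (4.61 to 9.47 FPKM) above that of Hdac9 (2.69 to 4.13 FPKM). Over all times Hdac1 was above Hdac2 in 12 of 12 libraries and Hdac2 above Hdac3 in 11 of 12. At 96 h the order was Hdac1, Hdac2, Hdac3, Hdac5, Hdac7, Hdac4, Hdac6, Hdac8, Hdac10 and Hdac9. Hdac4 had moved from the last to the sixth place, above Hdac6 in 4 of 4 libraries and below Hdac7 in 3 of 4, and Hdac10 and Hdac9 could not be ordered, with Hdac10 higher in 2 of 4.

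The start regions of the member that rose against its library, of a class I member that fell, and of one that was called in neither genotype relative to its library are shown for comparison. The windows are the 250 bases before the transcription start in RefSeq, build GRCm38.p6, and 7 of the 10 members were matched in that table, with Hdac1, Hdac3 and Hdac10 not matched. Capitals mark the GC box, GGGCGG, and the CCAAT box, CCAAT, on either strand. The windows lie at chr1:92180342-92180591 on the minus strand for Hdac4, chr10:36974294-36974543 on the plus strand for Hdac2, and chr12:34917096-34917345 on the minus strand for the first of 2 starts of Hdac9.
Hdac4: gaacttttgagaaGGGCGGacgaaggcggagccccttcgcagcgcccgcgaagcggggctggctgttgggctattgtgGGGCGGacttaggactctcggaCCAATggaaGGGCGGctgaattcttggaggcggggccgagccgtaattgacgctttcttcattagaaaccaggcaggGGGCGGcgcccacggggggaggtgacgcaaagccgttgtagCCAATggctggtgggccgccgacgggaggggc
Hdac2: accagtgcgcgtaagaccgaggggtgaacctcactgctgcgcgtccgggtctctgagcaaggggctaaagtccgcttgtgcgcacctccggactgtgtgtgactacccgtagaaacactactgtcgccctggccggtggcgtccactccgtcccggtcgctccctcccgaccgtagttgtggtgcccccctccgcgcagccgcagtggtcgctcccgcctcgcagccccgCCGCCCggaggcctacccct
Hdac9: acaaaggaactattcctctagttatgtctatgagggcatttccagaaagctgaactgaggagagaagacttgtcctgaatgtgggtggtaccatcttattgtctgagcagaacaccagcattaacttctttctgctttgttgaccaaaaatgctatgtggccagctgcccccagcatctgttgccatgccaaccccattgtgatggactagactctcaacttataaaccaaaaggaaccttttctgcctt

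The Hdac4 window held 4 GC boxes, 2 CCAAT boxes and 23 CG dinucleotides at 65.2% G and C. The Hdac2 window held 1 GC box, no CCAAT box and 27 CG dinucleotides at 68.8% G and C, so a window rich in G and C was common to the gene that rose and the gene that fell. The Hdac9 window held neither box and 0 CG dinucleotides at 44.4% G and C, and that of its second start held 2 CG dinucleotides at 43.6%. Over all 32851 promoters of the table, 32.74% held a GC box and 33.85% a CCAAT box in a window of this length, and the median window had 6 CG dinucleotides and 52.4% G and C. The Hdac6 window matched that of Hdac4 in its count, with 4 GC boxes and 2 CCAAT boxes, that of Hdac5 held 1 and 2, and that of Hdac8 held 0 and 2. Among the 4 starts of Hdac7, 1 held a GC box. The letters GAGGAA, the core read by the myeloid factor PU.1, were found in both Hdac9 windows and in none of those of the other 6 matched members, against 23.25% of all promoters. CACGTG, TGACGTCA and TTGCGCAA, the letters of an E-box, a CRE and a C/EBP site, were in none of the windows, against 6.02%, 1.55% and 0.164% of all promoters, and CCGGAA, an ETS site, was at 2 of the 4 Hdac7 starts, against 12.03%.

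Class I made up most of the family. Hdac1 stood at 103 and 218 FPKM in wild-type and at 165 and 107 FPKM in HMGN1-OE libraries at 0 h, at 216 and 249 and at 163 and 158 FPKM at 36 h, and at 42.7 and 15.3 and at 38.4 and 52.2 FPKM at 96 h. Every library of 96 h was below every earlier one. From 0 to 96 h the deposited level fell by 2.500 ± 0.57 on the log2 scale in wild-type cells (adjusted p = 3.07e-05) and, in HMGN1-OE cells, by 1.55 ± 0.57 (adjusted p = 0.0124). Relative to the library median the fall was -0.65 ± 0.15 in wild-type (adjusted p = 0.00339), and the difference in HMGN1-OE cells was -0.24 (95% interval -0.57 to 0.10, adjusted p = 0.184). Hdac1 remained among the most abundant transcripts, at percentiles 90.9 to 92.2 of the tested genes at 0 and 36 h and 86.7 to 90.7 at 96 h. The deposited call in HMGN1-OE cells was lost without the HMGN1-OE library of 0 h with the higher values (-1.24, adjusted p = 0.158) or that of 96 h with the lower values (-1.33, adjusted p = 0.132).

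Hdac2, the partner of Hdac1 in most of its complexes, had a large deposited fall in both genotypes. With a pseudocount of 1 its fall was the largest of the family, and with 0.1 it was exceeded by that of Hdac10, at -3.31 against -3.28 in wild-type cells and -2.54 against -2.18 in HMGN1-OE ones. Its FPKM were 82.8 and 159 in wild-type and 123 and 86.9 in HMGN1-OE libraries at 0 h, 143 and 181 and 114 and 104 at 36 h, and 21.5 and 6.40 and 17.7 and 29.3 at 96 h. The libraries of 96 h did not overlap with the earlier ones. The deposited difference was -3.16 ± 0.56 in wild-type cells (adjusted p = 8.11e-08) and -2.13 ± 0.56 in HMGN1-OE ones (adjusted p = 0.000469). Relative to the library median it was -1.32 ± 0.19 and -0.82 ± 0.19 (adjusted p = 0.000278 and 0.00494). The ratio of Hdac1 to Hdac2 FPKM within a library was 1.24 to 1.37 at 0 h, 1.38 to 1.52 at 36 h and 1.78 to 2.39 at 96 h, 3 ranges that did not overlap.

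Hdac3, the catalytic subunit of the NCoR complex, followed Hdac2. It was listed at 68.0 and 114 FPKM in wild-type and at 106 and 68.2 FPKM in HMGN1-OE libraries at 0 h, at 111 and 149 and at 86.3 and 79.5 FPKM at 36 h, and at 20.0 and 6.61 and at 15.5 and 22.5 FPKM at 96 h. All libraries of 96 h were again the lowest. The deposited level fell by 2.82 ± 0.55 in wild-type cells and, in HMGN1-OE cells, by 2.13 ± 0.55 (adjusted p = 1.28e-06 and 0.000421), and the level relative to the library median fell by 0.97 ± 0.15 and 0.81 ± 0.15 (adjusted p = 0.000458 and 0.00156).

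Hdac8, the class I enzyme outside the large complexes, was the least abundant of its class. Its FPKM were 9.27 and 22.0 in wild-type and 12.3 and 9.89 in HMGN1-OE libraries at 0 h, 20.1 and 24.5 and 15.2 and 13.3 at 36 h, and 2.40 and 1.19 and 2.26 and 3.29 at 96 h. The groups of 0 and 96 h did not overlap. The deposited differences were -2.49 ± 0.47 and -1.69 ± 0.47 (adjusted p = 5.87e-07 and 0.00109), and those relative to the library median -0.65 ± 0.14 and -0.38 ± 0.14 (adjusted p = 0.00317 and 0.0449). The last call did not survive the removal of either library of 36 h in either genotype, of either HMGN1-OE library of 96 h, or of the HMGN1-OE library of 0 h with the lower values, with adjusted p between 0.0538 and 0.235 in these 7 cases, and the deposited call in HMGN1-OE cells was lost without the HMGN1-OE library of 96 h with the lower values (adjusted p = 0.0537).

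Hdac4, a class IIa enzyme that binds MEF2 factors, was the only member with no deposited fall. It was listed at 2.23 and 4.70 FPKM in wild-type and at 2.75 and 2.07 FPKM in HMGN1-OE libraries at 0 h. At 36 h the values were 7.30 and 6.18 FPKM in wild-type and 5.76 and 3.92 FPKM in HMGN1-OE libraries, and at 96 h they were 6.08 and 3.81 and 5.11 and 5.14 FPKM. The libraries of 96 h were higher than those of 0 h except that 1 wild-type library of 0 h stood above 1 of 96 h. The deposited difference from 0 to 96 h was 0.44 (95% interval -0.39 to 1.28, adjusted p = 0.325) in wild-type and 0.85 (0.01 to 1.69, adjusted p = 0.0657) in HMGN1-OE cells, and under the alternatives the adjusted p ran from 2.43e-05 to 0.942 and from 5.15e-05 to 0.234. Leaving out any 1 wild-type library of 0 or 96 h gave an adjusted p of 0.0315 to 0.0455 in HMGN1-OE cells.

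Relative to the library median, Hdac4 had the largest rise of the family. Its values were -2.22 and -2.27 in wild-type and -2.57 and -2.34 in HMGN1-OE libraries at 0 h, -1.63 and -2.12 and -1.55 and -1.89 at 36 h, and -0.16 and 0.25 and -0.14 and -0.44 at 96 h. No library of 1 time overlapped with those of another, and the rank of Hdac4 among tested genes went from percentile 13.97 to 17.5 at 0 h through 18.8 to 24.5 at 36 h to 41.3 to 55.8 at 96 h. The rise from 0 to 96 h was 4.89-fold in wild-type cells and 4.48-fold in HMGN1-OE ones on this scale (adjusted p = 2.43e-05 and 5.15e-05), and most of it fell between 36 and 96 h, with 1.92 ± 0.22 and 1.43 ± 0.22 on the log2 scale (adjusted p = 6.75e-05 and 0.000539). With every library centred instead on the median of all 23309 listed genes, about as many of which failed the filter on low values (11793) as passed it, the difference was 0.67 in wild-type cells (adjusted p = 0.119) and 0.995 in HMGN1-OE ones (adjusted p = 0.0494). In the annotation, 3536 bases or 22.4% of the Hdac4 exons overlap Gm26720, a long non-coding RNA on the other strand, and the library kit does not mark strand, so reads of the overlap cannot be told apart.

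Hdac5 was the most abundant class IIa member. Its FPKM were 15.1 and 25.7 in wild-type and 27.4 and 16.4 in HMGN1-OE libraries at 0 h, 25.5 and 30.1 and 18.6 and 17.6 at 36 h, and 10.005 and 5.68 and 8.08 and 10.6 at 96 h. The libraries of 96 h lay below the others as deposited and above them relative to the library median. The deposited level fell by 1.27 ± 0.50 in wild-type cells and, in HMGN1-OE cells, by 1.12 ± 0.50 (adjusted p = 0.0155 and 0.0412), whereas relative to the library median it rose by 0.57 ± 0.11 in wild-type (adjusted p = 0.00124) and differed by 0.20 ± 0.11 in HMGN1-OE cells (adjusted p = 0.138). The deposited calls were lost in wild-type without the library of 0 h with the higher values or that of 96 h with the lower values (adjusted p = 0.131 and 0.121), and in HMGN1-OE cells without 1 of 7 libraries, with adjusted p between 0.0552 and 0.326. The 7 were that of 0 h with the higher values, either HMGN1-OE library of 96 h, and the 4 libraries of 36 h.

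Hdac7 was listed at 10.3 and 15.9 FPKM in wild-type and at 22.8 and 12.6 FPKM in HMGN1-OE libraries at 0 h, at 14.3 and 22.5 and at 12.5 and 13.1 FPKM at 36 h, and at 7.59 and 2.89 and at 6.23 and 6.75 FPKM at 96 h. As deposited the libraries of 96 h were the lowest. The deposited difference was -1.26 ± 0.49 in both genotypes (adjusted p = 0.0132 and 0.0168). Relative to the library median it was 0.59 ± 0.16 in wild-type cells (adjusted p = 0.0106) and 0.05 ± 0.16 in HMGN1-OE ones (adjusted p = 0.803). The wild-type calls were lost without the wild-type library of 0 h with the higher values on both scales (adjusted p = 0.0961 and 0.0801), without that of 96 h with the lower values as deposited (adjusted p = 0.243) and without that of 96 h with the higher values relative to the median (adjusted p = 0.0588). The deposited call in HMGN1-OE cells was lost without the library of 0 h with the higher values or either library of 96 h, with adjusted p between 0.0715 and 0.249.

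Hdac9, at 96 h the lowest member by mean FPKM though not separable from Hdac10, had 3.31 and 3.69 FPKM in wild-type and 4.13 and 2.69 FPKM in HMGN1-OE libraries at 0 h, 3.50 and 7.53 and 2.39 and 3.04 FPKM at 36 h, and 1.51 and 0.640 and 0.687 and 0.597 FPKM at 96 h. Its deposited level fell by 1.15 ± 0.39 in wild-type cells and, in HMGN1-OE cells, by 1.41 ± 0.39 (adjusted p = 0.00437 and 0.000870). Against the library median the differences were 0.70 (95% interval -0.01 to 1.40) and -0.09 (-0.80 to 0.61), with adjusted p of 0.0703 and 0.800. Under the alternatives they ran from -0.92 to 1.07 in wild-type and from -1.26 to 0.10 in HMGN1-OE cells. At 96 h the FPKM of Hdac9 lay near or below the pseudocount of 1, where a log2 difference of FPKM + 1 understates the change. The deposited wild-type call was lost without the library of 96 h with the lower values. The wild-type difference relative to the library median was 1.07 without the library of 0 h with the lower FPKM. It was smaller than 0.70 without that with the higher FPKM. The ratio of Hdac4 to Hdac9 within a library was 0.665 to 1.27 at 0 h and 4.03 to 8.61 at 96 h, and that of Hdac4 to Hdac5 went from 0.1002 to 0.183 through 0.205 to 0.310 to 0.485 to 0.672. A single scaling factor of a library would cancel in both ratios, and their ranges at 0 and 96 h did not overlap.

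Of class IIb, Hdac6, the tubulin deacetylase, behaved like Hdac5. It was listed at 4.61 and 9.47 FPKM in wild-type and at 9.02 and 4.99 FPKM in HMGN1-OE libraries at 0 h, at 8.26 and 10.1 and at 5.26 and 5.26 FPKM at 36 h, and at 3.04 and 1.28 and at 2.44 and 2.82 FPKM at 96 h. Its deposited level fell by 1.34 ± 0.44 and 1.10 ± 0.44 (adjusted p = 0.00333 and 0.0206), and relative to the library median it rose by 0.51 ± 0.12 in wild-type (adjusted p = 0.00475) and differed by 0.22 ± 0.12 in HMGN1-OE cells (adjusted p = 0.145). The deposited calls were lost in wild-type without the library of 0 h with the higher values or that of 96 h with the lower values (adjusted p = 0.0799 and 0.0931), and in HMGN1-OE cells without that of 0 h with the higher values or either of 96 h, with adjusted p between 0.0729 and 0.275.

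Hdac10, the polyamine deacetylase, had the pattern of class I. Its FPKM were 7.93 and 9.31 in wild-type and 10.9 and 8.04 in HMGN1-OE libraries at 0 h, 9.85 and 15.8 and 9.20 and 9.19 at 36 h, and 1.49 and 0.384 and 1.12 and 2.08 at 96 h. The libraries of 96 h lay below all others. The deposited differences were -2.37 ± 0.44 and -2.02 ± 0.44 (adjusted p = 4.15e-07 and 3.04e-05), and relative to the library median they were -0.52 ± 0.21 in wild-type cells (adjusted p = 0.0519) and -0.71 ± 0.21 in HMGN1-OE ones (adjusted p = 0.0167). The last call was lost without the HMGN1-OE library of 0 h or of 96 h with the lower values. The wild-type difference was -0.86 without the wild-type library of 0 h with the higher values and -0.19 without that with the lower values. It was called in the former case and without either wild-type library of 36 h. Under all alternatives it ran from -2.14 to -0.19, and that in HMGN1-OE cells from -1.88 to -0.59. At 96 h the FPKM of Hdac10 lay near the pseudocount of 1, where a log2 difference of FPKM + 1 understates the fall.

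**Figure D2:**
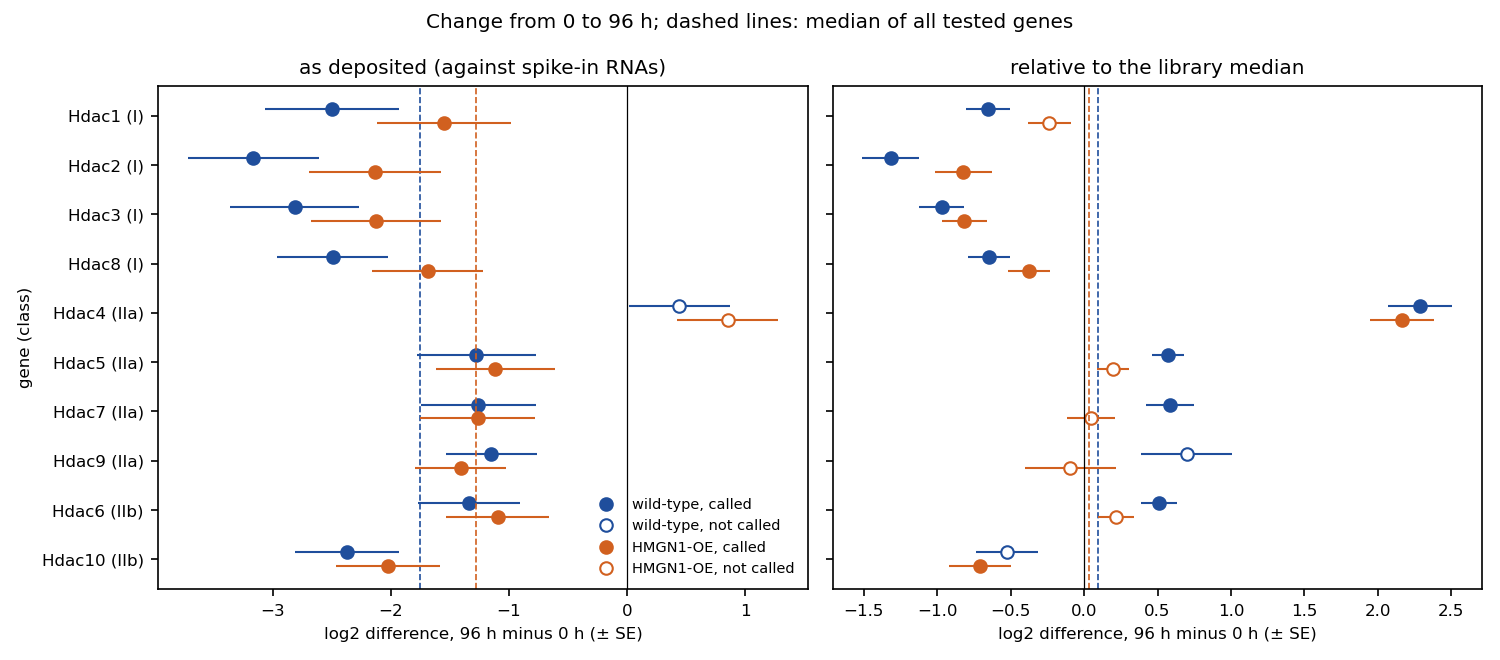
Log2 difference of FPKM + 1 between 96 and 0 h for each gene, with its SE, as deposited (left) and relative to the library median (right), in wild-type (blue) and HMGN1-OE cells (orange). Filled points passed an adjusted p of 0.05, and dashed lines mark the median of all tested genes, -1.75 and -1.28 as deposited. Hdac5, Hdac6 and Hdac7 lie below 0 on the left and above 0 on the right, and Hdac4 lies above 0 on both.

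Counted over the family, 9 of 10 members were lower at 96 h than at 0 h as deposited in wild-type and the same 9 in HMGN1-OE cells, all but Hdac4. Of all tested genes, 77.2% were lower in wild-type cells and 62.4% in HMGN1-OE ones, so 9 of 10 is not far from what genes did at large. The count was 5 without the wild-type library of 96 h with the lower values, 5 without the HMGN1-OE library of 0 h with the higher values and 4 without the HMGN1-OE library of 96 h with the lower values. Between 36 and 96 h the counts were 9 in wild-type cells and 6 in HMGN1-OE ones (Hdac1, Hdac2, Hdac3, Hdac8, Hdac9 and Hdac10), against 86.3% and 64.9% of all tested genes. On the library-median scale, 4 members were higher (Hdac4, Hdac5, Hdac6 and Hdac7) and 4 lower (Hdac1, Hdac2, Hdac3 and Hdac8) in wild-type, against 36.5% and 33.8% of tested genes, and 1 was higher (Hdac4) and 4 were lower (Hdac2, Hdac3, Hdac8 and Hdac10) in HMGN1-OE cells, against 30.9% and 32.5%. The last 5 became 3, with Hdac8 and Hdac10 lost, without the HMGN1-OE library of 0 h with the lower values or that of 96 h with the lower values.

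The libraries were also compared without a model. As deposited, the 4 libraries of 96 h were all below the 4 of 0 h for 9 members, as they were for 77.0% of tested genes. With the library median as reference they were all above for Hdac4, Hdac5 and Hdac6, as for 36.9% of tested genes, and all below for Hdac1, Hdac2, Hdac3, Hdac8 and Hdac10, as for 34.0%. The 3 and 5 of 10 members are near these shares. The direction given for Hdac5 and Hdac6 thus depended on the scale, and with the median of all 23309 genes as the centre both were lower at 96 h in wild-type, by 1.04 and 1.11 on the log2 scale (adjusted p = 0.0182 and 0.0107).

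At 36 h no difference passed the threshold. In wild-type cells all 10 members were higher than at 0 h as deposited, by 0.40 to 0.85 on the log2 scale with SEs of 0.39 to 0.57, around a median of 0.47 over all tested genes, and in HMGN1-OE cells the differences ran from -0.38 to 0.77, around a median of 0.06. No member was called between 0 and 36 h as deposited in either genotype, where 0.617% of tested genes were called in wild-type cells and 1.8% in HMGN1-OE ones. At an unadjusted p under 0.05 the count of members was 1 in wild-type cells (Hdac4) and 0 in HMGN1-OE ones by limma, beside 378 and 578 of 11516 tested genes. Against the library median the count was again 0. Of all tested genes, 1 was called in wild-type, and 9 were called higher and 6 lower with the transgene. At an unadjusted p under 0.05 there were 0 and 4 members, beside 352 and 1706 of 11516 tested genes. The lowest adjusted p was 0.176, for Hdac4 in HMGN1-OE cells, with a log2 difference of 0.74. On that scale all 4 libraries of 36 h lay above those of 0 h for Hdac1 and Hdac4, as for 5.51% of tested genes, and below them for Hdac6, as for 4.39%.

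**Figure D3:**
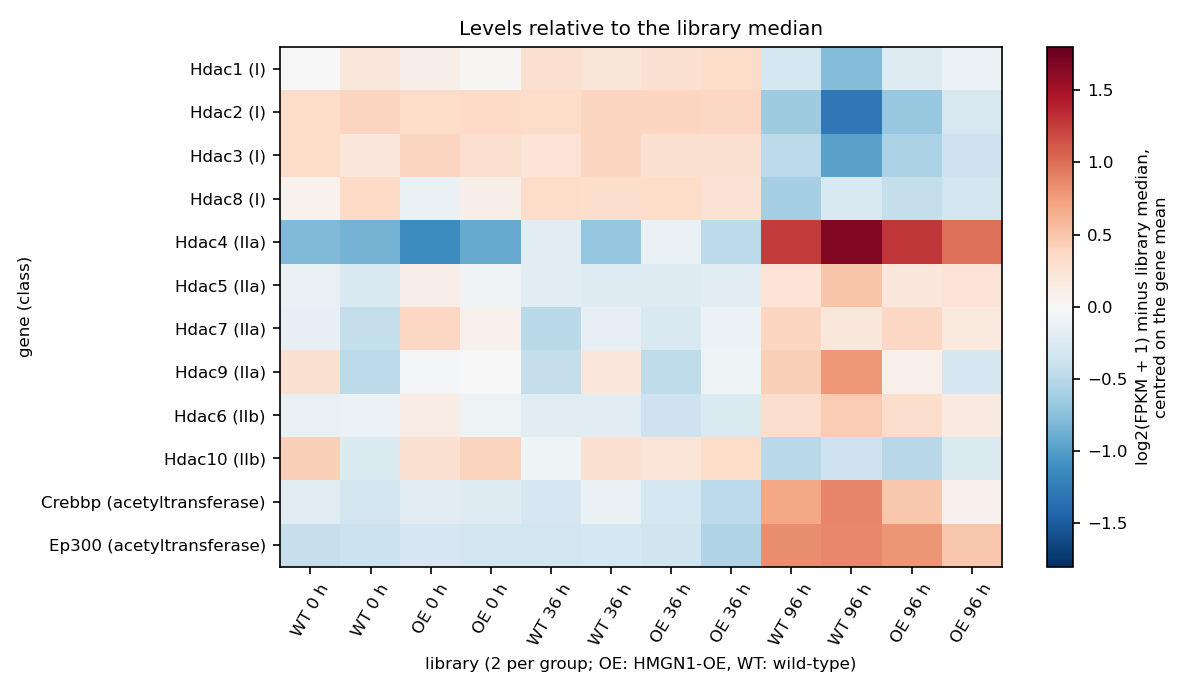
Level of each member, and of Crebbp and Ep300, in the 12 libraries as log2(FPKM + 1) minus the library median, centred on the mean of the gene (colour, red above and blue below). The libraries of 96 h are blue for Hdac1, Hdac2, Hdac3, Hdac8 and Hdac10 and red for Hdac4, Hdac5 and Hdac6, although the deposited FPKM of Hdac5 and Hdac6 fell.

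Across the 12 libraries the members varied unequally. On the library-median scale the SD was 1.01 for Hdac4, above 89.1% of tested genes, 0.58 for Hdac2 and 0.46 for Hdac3, and it was lowest for Hdac5, at 0.25, above 27.7% of tested genes. As a description over 12 libraries that share 3 times and 2 genotypes, Pearson's r was 0.98 between Hdac2 and Hdac3, 0.94 between Hdac1 and Hdac2, 0.95 between Hdac5 and Hdac6, -0.95 between Hdac4 and Hdac3 and 0.79 between Hdac4 and Hdac5. The tested genes with the pattern most like that of Hdac4 were Nedd9, Trappc9 and Ublcp1, each with r = 0.994. Those most like Hdac2 were Snrpd1, Cse1l and Sf3b3, at 0.998, 0.997 and 0.997, and those most like Hdac3 were Nomo1, Rcc2 and Ddb1, at 0.996, 0.995 and 0.994. Such likeness was common, since 2391, 2517 and 2592 tested genes had an r above 0.9 with Hdac4, Hdac2 and Hdac3.

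The make-up of the family was taken within each library, where a single scaling factor cancels, though not a loess curve that depends on the level of a gene. Class I held 84.1% to 88.2% of the summed FPKM of the 10 members at 0 h, 86.7% to 87.7% at 36 h and 66.8% to 79.3% at 96 h. Class IIa held 8.60% to 11.8%, 9.05% to 9.55% and 17.1% to 29.5%, and class IIb 3.23% to 4.12%, 3.24% to 3.72% and 3.62% to 3.90%. Class IIa thus went from 10.3% ± 1.33 (SD, n = 4, both genotypes pooled) to 22.2% ± 5.24 with no overlap. Class I lost share, while class IIb kept within its range. Hdac4 alone held 0.569% to 0.809% at 0 h, 0.889% to 1.33% at 36 h and 3.80% to 8.64% at 96 h. The highest class IIa share, 29.5%, was that of the wild-type library of 96 h with the lowest FPKM for most members, and without it the mean at 96 h was 19.8%.

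**Figure D4:**
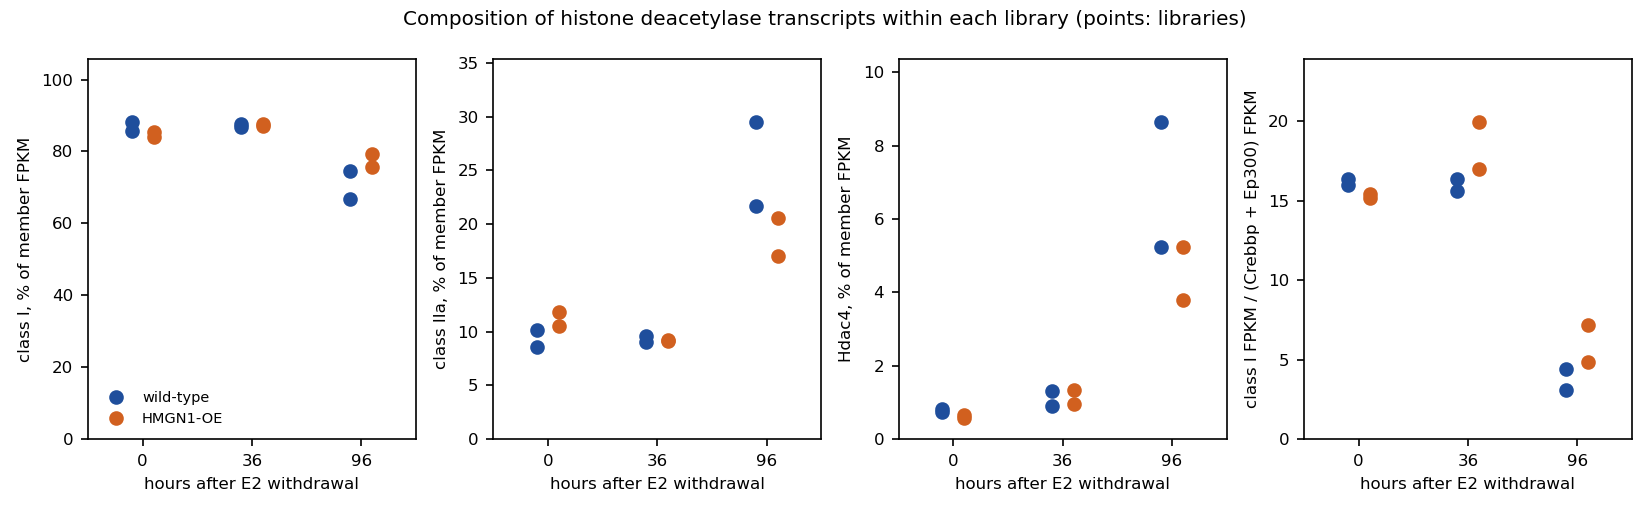
Share of class I, class IIa and Hdac4 in the summed FPKM of the 10 members (percent), and the ratio of summed class I FPKM to Crebbp plus Ep300 FPKM, in each library against hours after E2 withdrawal. Axes start at 0. Class I drops and class IIa and Hdac4 gain between 36 and 96 h in both genotypes, and the ratio to the acetyltransferases goes from 15.2 to 19.9 in the earlier libraries to 3.10 to 7.17 at 96 h.

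From 0 to 96 h the opposing acetyltransferases had smaller deposited differences than 9 of the 10 members. Crebbp, the gene of CBP, was at 4.54 and 8.16 FPKM in wild-type and at 7.13 and 4.53 FPKM in HMGN1-OE libraries at 0 h, at 7.75 and 11.1 and at 5.65 and 4.52 FPKM at 36 h, and at 4.35 and 2.11 and at 2.93 and 2.68 FPKM at 96 h. Ep300, the gene of p300, was at 11.9 and 23.1 and at 19.6 and 13.1 FPKM at 0 h, at 22.2 and 27.6 and at 16.6 and 13.3 FPKM at 36 h, and at 15.2 and 7.40 and at 12.4 and 12.3 FPKM at 96 h. As deposited neither changed past the threshold between 0 and 96 h, with differences of -0.80 and -0.82 for Crebbp (adjusted p = 0.0789 and 0.0839) and of -0.60 and -0.36 for Ep300 (adjusted p = 0.259 and 0.525). Between 36 and 96 h both fell in wild-type cells, Crebbp by 1.33 ± 0.44 and Ep300 by 1.14 ± 0.50 (adjusted p = 0.00296 and 0.0263), and in HMGN1-OE cells the differences were -0.67 and -0.25 (adjusted p = 0.154 and 0.652). With the library median as reference both rose, Crebbp by 1.04 ± 0.16 in wild-type cells and 0.49 ± 0.16 in HMGN1-OE ones (adjusted p = 0.000310 and 0.0203) and Ep300 by 1.25 ± 0.11 and 0.96 ± 0.11 (adjusted p = 1.73e-05 and 0.000106).

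Per FPKM of Crebbp plus Ep300, class I stood at 15.2 to 16.4 FPKM at 0 h, 15.6 to 19.9 at 36 h and 3.10 to 7.17 at 96 h. The mean went from 15.7 ± 0.54 (SD, n = 4) to 4.88 ± 1.70, with no overlap between the libraries. Class IIa stood at 1.60 to 2.13, 1.69 to 2.12 and 1.29 to 1.54, a smaller shift, and class IIb at 0.601 to 0.761, 0.603 to 0.812 and 0.175 to 0.328. These ratios concern transcripts, and protein or activity was not analysed here.

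The genotypes were compared at each time. At 0 h the deposited differences, HMGN1-OE minus wild-type, ran from -0.35 for Hdac8 to 0.38 for Hdac7, against a median of -0.12 over the tested genes. No member was called, whereas 1.36% of tested genes were, and no member passed an unadjusted p of 0.05 by limma. The 95% intervals were wide, from -1.18 to 0.50 for Hdac4 and from -1.29 to 0.95 for Hdac1. Against the library median 0.104% of tested genes and no member were called, and Hdac7 was the member furthest from 0, at 0.51 (95% interval 0.14 to 0.88, adjusted p = 0.652), with both HMGN1-OE libraries above both wild-type ones. The same held for Hdac5 and Hdac6 and for 19.8% of tested genes, and Hdac4 lay below in both, as 17.9% of tested genes did.

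At 36 h both HMGN1-OE libraries were below both wild-type libraries for all 10 members as deposited, as they were for 84.4% of tested genes. The differences lay between -0.40 for Hdac10 and -0.74 for Hdac9, around a median of -0.54 for the tested genes. None was called, against 1.26% of tested genes, with the lowest adjusted p at 0.496 and 0 members at an unadjusted p under 0.05 by limma. On the library-median scale the differences shrank to between -0.16 and 0.18, and 0.0521% of tested genes and no member were called.

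At 96 h the deposited differences ran from -0.31 for Hdac9 to 0.88 for Hdac2, against a median of 0.36, with no member called and none at an unadjusted p under 0.05 by limma, beside 0.669% of tested genes called. With the library median as reference, Hdac1 was higher in HMGN1-OE cells by 0.38 (95% interval 0.05 to 0.71), Hdac2 by 0.48 (0.04 to 0.92), and Hdac9 lower by a difference of -0.71 (-1.41 to -0.00), the 3 members with an unadjusted p under 0.05, as 2061 of 11516 tested genes had, and none passed the adjustment (adjusted p = 0.243, 0.252 and 0.277), where 0.0608% of tested genes did. Without the wild-type library of 96 h with the higher values, Hdac1, Hdac2 and Hdac3 were called higher in HMGN1-OE cells, with differences of 0.61, 0.80 and 0.49 (adjusted p = 0.0288, 0.0270 and 0.0438). The 2 wild-type libraries of 96 h differed by up to 0.64 among members on this scale, for Hdac2, against up to 0.39 in HMGN1-OE cells. With 2 libraries against 2, an exact permutation test of a single gene cannot reach p under 0.05.

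**Figure D5:**
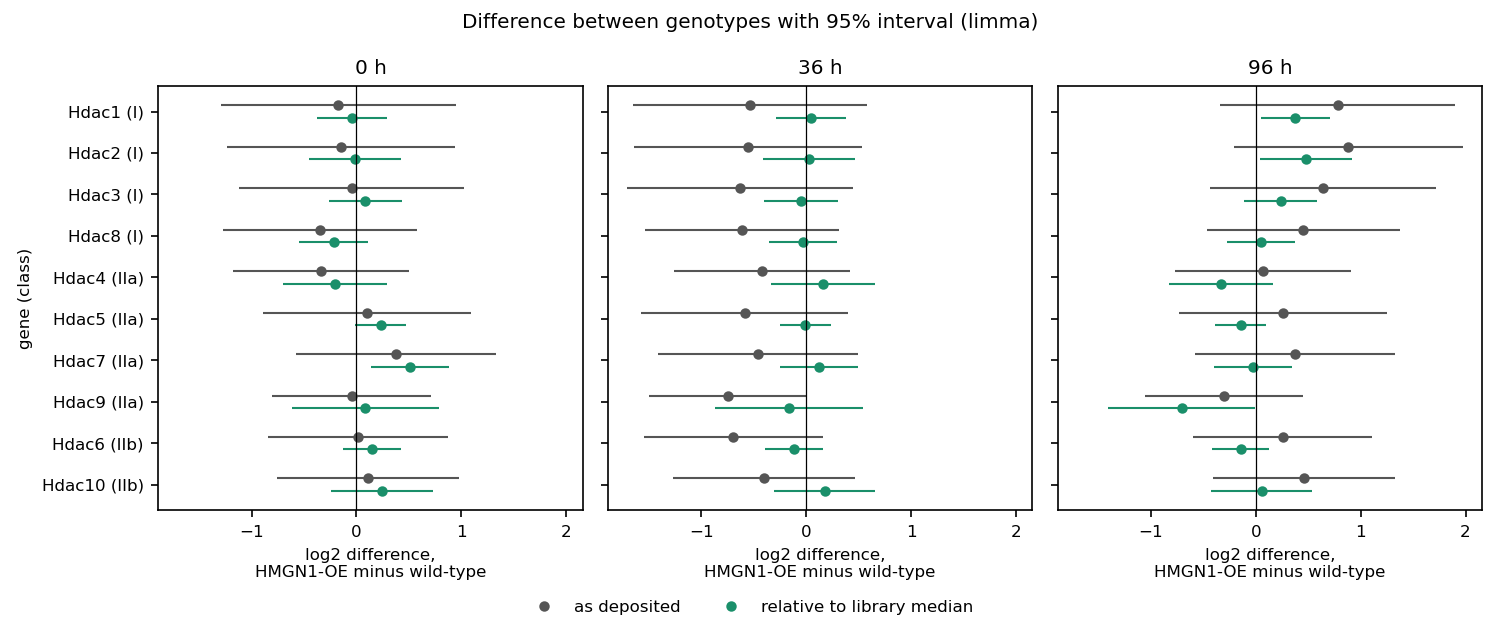
Log2 difference of FPKM + 1, HMGN1-OE minus wild-type, with its 95% interval from limma, at 0, 36 and 96 h for each member, as deposited (grey) and relative to the library median (green). At 36 h all 10 grey points lie below 0, as the median of all tested genes does, and the green points lie near 0. The green intervals of Hdac7 at 0 h and of Hdac1, Hdac2 and Hdac9 at 96 h leave out 0, and no member passed an adjusted p of 0.05.

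The change of the genotype difference over time was tested as an interaction. Between 0 and 36 h 0.504% of tested genes and no member were called as deposited, and between 0 and 96 h 0.677% of tested genes and no member, with 0 members at an unadjusted p under 0.05 in both by limma. Relative to the median, Hdac5 and Hdac7 had an unadjusted p under 0.05 between 0 and 96 h, as 1224 of 11516 tested genes had, with estimates of -0.38 (95% interval -0.72 to -0.03) and -0.54 (-1.06 to -0.01). The lowest adjusted p of a member was 0.810 between 0 and 96 h as deposited and 0.466 relative to the library median, where the estimates ran from -0.79 for Hdac9 to 0.50 for Hdac2. The smaller fall of Hdac2 with the transgene, -0.82 against -1.32 without it relative to the library median, is therefore not shown to be a difference between the genotypes.

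The other genes of the pathway were counted where they moved the same way in both genotypes from 0 to 96 h. Against the library median 28.3% of tested genes were higher and 29.3% lower in both genotypes, and as deposited 3.85% and 61.1%. No gene of the lists below was called between the genotypes at any time on either scale, and none was higher in both genotypes as deposited, so the rises named here hold relative to the library median. Without the filter on low values, when the centre was the median of all listed genes, the count of higher genes over these lists went from 30 to 1. It was 17 or 18 without 1 HMGN1-OE library of 0 h and 16 without the HMGN1-OE library of 96 h with the lower values.

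Among the acetyltransferases 7 of 13 were higher and 1 lower, with Ep300 rising most and Kat2a, the catalytic subunit of the SAGA complex also known as GCN5, falling by 1.85 ± 0.11 in wild-type cells and 1.42 ± 0.11 in HMGN1-OE ones (adjusted p = 4.44e-06 and 1.82e-05). As deposited 6 of the 13 were lower in both genotypes. Of the other deacetylases, the sirtuins and Hdac11, 7 of 8 were tested, 2 were higher (Sirt2 and Sirt7) and 1 lower, and 5 were lower as deposited (Sirt1, Sirt3, Sirt4, Sirt5 and Sirt6). Sirt2, a mostly cytoplasmic deacetylase, rose by 1.45 ± 0.15 and 1.17 ± 0.15 (adjusted p = 3.29e-05 and 0.000155), and the mitochondrial Sirt3 fell by 1.55 ± 0.17 and 1.53 ± 0.17 (adjusted p = 4.93e-05 and 7.87e-05). Hdac11, the class IV enzyme, stayed under 0.6 FPKM in all 12 libraries and was not tested.

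The complexes that hold Hdac1 and Hdac2 were mixed. In the Sin3 complex 4 of 15 were higher (Sap18, Ing1, Ing2 and Arid4a), among them Ing2 with 0.56 and 0.60, and 3 lower (Sap30, Brms1l and Rbbp7), among them the histone chaperone Rbbp7 with -1.82 and -1.45. In the NuRD complex 2 of 9 were higher (Mbd2 and Gatad2b), led by the methyl-CpG binder Mbd2 with 1.11 and 0.97, and 4 lower (Chd4, Mta1, Mbd3 and Gatad2a), led by Mta1 with -1.10 and -1.16. In the CoREST complex 3 of 7 were higher (Rcor1, Hmg20b and Phf21a), with Phf21a at 1.14 and 0.56, and 2 lower (Rcor2 and Kdm1a), with Rcor2 at -1.68 and -2.05 and from 10.1 to 14.2 FPKM at 0 h to under 0.4 FPKM at 96 h. In the MiDAC complex 2 of 3 were higher (Elmsan1 and Trerf1), with Elmsan1 at 0.91 and 0.43, and 0 lower. Trerf1 ran from 2.27 to 5.11 FPKM at 0 h and from 0.430 to 1.47 FPKM at 96 h. These values are near the pseudocount of 1, which understates a fall, so its place among the higher genes is uncertain. As deposited 11, 7, 4 and 1 genes of these 4 complexes were lower in both genotypes.

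Around class IIa, 7 of the 16 tested partners and kinases were higher and 3 lower (the 14-3-3 genes Ywhae, Ywhag and Ywhaq). Camk1, a calcium-dependent kinase of a family that phosphorylates class IIa enzymes, rose by 2.09 ± 0.24 in wild-type cells and 2.24 ± 0.24 in HMGN1-OE ones (adjusted p = 6.67e-05 and 6.93e-05), from 1.85 to 6.34 FPKM at 0 h to 3.68 to 9.15 FPKM at 96 h, and Ywhaq, a 14-3-3 protein, fell by 1.07 ± 0.17 and 0.76 ± 0.17. Of the 7 tested HDAC6 substrates and ubiquitin partners, 0 were higher and 4 lower (Hsp90aa1, Hsp90ab1, Vcp and Plaa), with Hsp90ab1 at -2.16 ± 0.18 and -1.82 ± 0.18 (adjusted p = 1.35e-05 and 5.11e-05). Of 5 acetyl-lysine readers of the bromodomain family, Brd9 alone was higher, by 0.48 and 0.49, and 0 were lower relative to the library median. As deposited 9 of the 16 partners and kinases, 5 of the 7 HDAC6 substrates and partners, and 3 of the 5 readers (Brd2, Brd3 and Brd7) were lower in both genotypes.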

How the data were processed

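RNA of 12 libraries (wild-type and HMGN1-OE, 0, 36 and 96 h, 2 libraries each) was measured by RNA-seq with ERCC RNAs added to RNA from counted cells. The deposited values are FPKM. Per the study's methods, the authors aligned reads with Bowtie, computed values per gene, and normalized them by loess to the ERCC RNAs, whereas the submitters' processing notes name HISAT, Cufflinks 2.0.0 and mm9. Depth is unknown. The table columns give genotype and time, and their digits are not the replicate numbers of the labels, so columns were assigned to groups and the libraries carry no number. No column of values was left unused (0 columns).

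Genes that reached 1 FPKM in 2 or more of 12 libraries were kept (11516 of 23309), with 92 ERCC RNAs left out. Differences of log2(FPKM + 1), with a pseudocount of 1, were tested with limma 3.58.1 (R 4.3.3, eBayes with trend, two-sided, 6 group means, Benjamini-Hochberg over all tested genes, called at an adjusted p under 0.05), as deposited and after centring each library on the median of the tested genes. As deposited limma set infinite prior degrees of freedom, so a gene's own spread did not enter its SE. After centring the prior degrees of freedom were 2.87. Between the 2 wild-type libraries of 0 h the median absolute log2 difference over tested genes was 0.86 as deposited and 0.15 after centring. At 96 h it was 0.90 and 0.27, so much of the deposited spread was shared by the genes of a library. A loess curve depends on the level of a gene, which centring does not undo. A log2 difference of FPKM + 1 understates the change of low genes. The fit was also run on simulated data, and the outcome is not given here. The tool versions for tables and figures were Python 3.11.15, pandas 2.3.3, numpy 2.4.6, scipy 1.17.1 and matplotlib 3.10.9. Chromosomes and exon overlaps came from GENCODE vM21, and promoter sequences from RefSeq, GRCm38.p6. No coordinates were taken from the deposited table.

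The 10 members, the gene lists and the tests were chosen with earlier results of these data known. The text names all members, Crebbp, Ep300, Hmgn1, and the gene of each list with the largest rise and fall called in both genotypes. It also names the 3 genes most like each of the 3 most variable members, and the genes of some counts of 5 or fewer. The result of 1 gene list is not reported here. Alternatives were a pseudocount of 0.1, no filter, a mean of at least 5 FPKM, quantile normalization, limma without trend, with the robust option or without moderation, only the groups compared, and each library left out in turn.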

Additional observations from a re-analysis of the deposited data

Results flagged for a closer look

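Hdac6 went opposite ways between the genotypes at 2 times. Relative to the library median, both HMGN1-OE libraries were above both wild-type libraries at 0 h, with a mean difference of 0.15 on the log2 scale, and both were below them at 36 h, with -0.11. The difference between the times was not tested by this comparison of single libraries, and in the limma fit neither value nor their interaction passed the threshold. At 0 h 19.8% of tested genes had both HMGN1-OE libraries above, and at 36 h 9.49% had both below.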

How the results depend on the processing

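The deposited values compare cells against spike-in RNAs and the centred values compare a gene with the other genes of its library, and the direction of 5 members turned between these scales. Where a deposited fall was called, centring gave positive values between 36 and 96 h in wild-type of 0.58 for Hdac5, 0.61 for Hdac7, 0.71 for Hdac9 and 0.58 for Hdac6, and in HMGN1-OE cells, where the deposited values had passed the threshold for Hdac9 alone, of 0.44, 0.46, 0.17 and 0.55. Between 0 and 96 h it gave 0.57, 0.59, 0.70 and 0.51 in wild-type and 0.20 for Hdac5, 0.049 for Hdac7 and 0.22 for Hdac6 in HMGN1-OE cells. Hdac4 went from -0.40 to 1.92 between 36 and 96 h in wild-type. Quantile normalization gave 1.75 for this value, and for Hdac5, Hdac7, Hdac9 and Hdac6 0.65, 0.57, 0.10 and 0.30 between 36 and 96 h and 0.63, 0.56, 0.13 and 0.28 between 0 and 96 h in wild-type. In HMGN1-OE cells it gave 0.49, 0.45 and 0.38 for Hdac5, Hdac7 and Hdac6 between 36 and 96 h and 0.26, 0.055 and 0.092 between 0 and 96 h. By its construction, leaving out the filter moved the centre to the median of all listed genes, 11793 of which failed it. Against that centre Hdac4, Hdac5, Hdac7, Hdac9 and Hdac6 were at -0.065, -1.40, -1.38, -1.27 and -1.40 between 36 and 96 h in wild-type, the last 4 at -1.04, -1.03, -0.92 and -1.11 between 0 and 96 h and at -0.69, -0.68, -0.97 and -0.58 between 36 and 96 h in HMGN1-OE cells, and Hdac7 at -1.12 between 0 and 96 h in HMGN1-OE cells.

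Counts of members called moved as follows. As deposited from 0 to 96 h, the 9 in wild-type became 5 with only the groups compared in the fit and 5 to 9 with 1 library left out, and the 9 in HMGN1-OE cells became 5 without the filter, 5 after centring and 4 to 10 with 1 library left out. Relative to the library median, the 5 in HMGN1-OE cells from 0 to 96 h became 8 without the filter. With a mean of at least 5 FPKM the 5 became 3, as Hdac4 and Hdac9 are dropped from the test and Hdac8 lost its call. This count and the 0 between genotypes at 96 h also moved with 1 library left out, as given above. Of the other genes of the pathway, the 30 higher in both genotypes became 1 without the filter and 16 to 29 with 1 library left out (17 and 18 without an HMGN1-OE library of 0 h, 16 without that of 96 h with the lower values), and the 19 lower became 45 and 15 to 20. Members with all libraries of 96 h above those of 0 h as deposited went from 0 to between 0 and 1, the 1 being Hdac4. For an alternative added after seeing the data, no filter with the centre kept on the tested genes, no count of members called relative to the median moved by over 1.5 times. A left-out library leaves 1 in its group, which is then assumed to vary like the others. Over 4576 values of members under an alternative, 91 lost a call, 36 gained one, 45 reversed as given above, and 4404 stayed on their side of the threshold, 185 of them with a change of sign and no call on either setting. No paired analysis was possible because the columns of the table carry no replicate number of the labels. Depth is unknown, so low values such as those of Hdac9 and Hdac10 at 96 h carry a counting error that could not be given.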
